A study of Mus musculus with 8 samples.

Results

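The 42 genes described here encode proteins of the synaptic vesicle and of the machinery that releases it: synapsins and vesicle membrane proteins, synaptotagmins, SNAREs and their regulators, Rab3 GTPases, priming factors and scaffolds of the active zone, neurexins and endocytic proteins. They were chosen by symbol for their known function, from the 53379 genes of the count table, and each symbol matched 1 gene. Bulk RNA sequencing of the cingulate gyrus (cingulate cortex in the sample labels) compared 4 untreated wild-type male mice (WT) with 4 male mice homozygous for a gene-trap allele of *Mvp* (*Mvp*-/-, here Mvp KO), and asked which transcripts change when the major vault protein is lost. In that allele, which comes from 1 embryonic stem cell clone, a β-galactosidase and neomycin cassette with a polyadenylation signal sits in the first intron of *Mvp* in every cell. The age of the sequenced mice is not given in the sources used here, and the mice of both groups were studied on a C57BL/6 background.

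A nerve terminal stores transmitter in small vesicles that dock at the active zone, a protein scaffold facing the synaptic cleft. Priming factors bring a vesicle SNARE (synaptobrevin, encoded by *Vamp1* and *Vamp2*) together with the membrane SNAREs (syntaxin and SNAP-25), synaptotagmin senses calcium and triggers fusion, and the ATPase NSF with its SNAP adaptors takes the complexes apart again. Vesicle membrane is then retrieved with the help of dynamin, amphiphysin, endophilin and synaptojanin. Cortical tissue holds terminals of local excitatory and inhibitory neurons and of axons from elsewhere, whose cell bodies, and most of whose RNA, lie outside the dissected piece.

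No change in these genes was detected between Mvp KO and WT. In edgeR's quasi-likelihood test, 0 of the 42 were called in either direction at an adjusted p under 0.05. Over the 16914 genes tested the share called was 0.00591%. DESeq2's Wald test and limma voom also called 0 of the 42, and the share of all genes that they called is not given here. At an unadjusted p under 0.05 in edgeR's test there were again 0, where the share over all genes was 1.56%. The genotypes overlapped in each of the 42 genes, and 1.52% of all genes did not overlap. The samples varied individually: WT replicate 4 held the highest level of 30 of these genes, against 29.2% of all genes (of 18 when scaled by total counts alone), and *Syt2*, *Vamp1* and *Doc2b* varied between mice of both genotypes more than most genes did.

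The total count per sample lay between 28456504 and 42854368, and all 42 genes passed the filter on low counts, with between 172 counts (*Syn3*) and 155702 counts (*Snap25*) in a sample. Levels within a gene are given as CPM, the gene's counts relative to the sample's total scaled by edgeR's TMM factors, and levels of different genes are compared as CPM per kilobase of merged exon (RPKM). *Mvp* itself had 6.83 ± 1.0 CPM in WT and 1.63 ± 0.334 CPM in Mvp KO (mean ± SD, n = 4 each). It was the single gene called, with a log2 fold change of -2.06 (SE 0.19, edgeR adjusted p = 0.0162) and no overlap between the genotypes. The call was lost with a replicate block (adjusted p = 0.0850) and without any of 6 of the 8 samples (adjusted p = 0.0918 to 0.147). WT replicate 4 stood apart: a principal component analysis of log2 CPM placed it at 71.5 on PC1, which held 46.0% of the variance, and placed the other 7 between -20.4 and -2.78. Fold changes are therefore given with and without it. The 10 immediate early genes, which neurons transcribe within minutes of activity, were all highest in that sample, and 7 of 8 oligodendrocyte markers were lowest there. Their part in the results below was not tested.

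The promoters of the 5 genes that stood highest in WT replicate 4, by the ratio to the next sample, are shown because these genes stood furthest out in the same sample. *Amph*, *Syn2*, *Napb*, *Sv2c* and *Syn1* were 1.97, 1.82, 1.64, 1.63 and 1.48 times the highest of the other 7 samples. The letters are RefSeq promoter windows of GRCm38.p6, cut to the bases before the gene's start in both RefSeq and GENCODE, each read 5′ to 3′ on the gene's strand. Capitals mark matches to 5 motifs searched on both strands, namely the cyclic AMP response element TGACGTCA, the EGR motifs GCGTGGGCG and GCGGGGGCG, the AP-1 motif TGAGTCA, and TTCAGCACC, which is the first part of the RE1 element bound by the neuronal repressor REST. The motifs were chosen after the values of the immediate early genes had been seen.
*Amph*, chr13:18948101-18948204, plus strand: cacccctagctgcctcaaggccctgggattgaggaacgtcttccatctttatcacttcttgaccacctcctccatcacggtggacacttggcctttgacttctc
*Syn2*, chr6:115134652-115134901, plus strand: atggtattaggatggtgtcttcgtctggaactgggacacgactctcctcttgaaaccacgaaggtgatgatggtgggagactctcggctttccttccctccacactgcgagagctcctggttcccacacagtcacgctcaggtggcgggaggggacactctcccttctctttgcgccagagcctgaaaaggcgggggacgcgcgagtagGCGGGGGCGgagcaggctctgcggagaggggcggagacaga
*Napb*, chr2:148732468-148732670, minus strand: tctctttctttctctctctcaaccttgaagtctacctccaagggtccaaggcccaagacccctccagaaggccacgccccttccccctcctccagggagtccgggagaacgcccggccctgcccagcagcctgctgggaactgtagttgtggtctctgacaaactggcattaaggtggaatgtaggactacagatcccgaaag
*Sv2c*, chr13:96132578-96132827, minus strand: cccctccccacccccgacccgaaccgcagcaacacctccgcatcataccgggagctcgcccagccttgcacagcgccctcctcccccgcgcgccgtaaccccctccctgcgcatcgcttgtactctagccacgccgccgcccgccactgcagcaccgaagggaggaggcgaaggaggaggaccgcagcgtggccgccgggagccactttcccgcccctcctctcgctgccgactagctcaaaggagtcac
*Syn1*, chrX:20921005-20921168, minus strand: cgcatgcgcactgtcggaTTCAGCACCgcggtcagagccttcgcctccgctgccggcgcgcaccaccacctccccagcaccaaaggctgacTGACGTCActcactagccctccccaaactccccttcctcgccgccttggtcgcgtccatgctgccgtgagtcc
*Syn1* holds the full cyclic AMP response element 159 to 152 bases before its RefSeq start and the RE1 letters 232 to 224 bases before it. *Syn2* holds GCGGGGGCG 41 to 33 bases before its start. The windows of *Amph*, *Napb* and *Sv2c* hold none of these letters, also in the bases not printed here, which says only that these letters are absent from the window. Of the 42 genes, 34 have a RefSeq window. Among these, TGACGTCA lies in 2 genes (*Syn1* and *Sh3gl2*) against 2.03% of all 27025 genes with a window, and GCGGGGGCG lies in 5 (*Syn2*, *Syngr1*, *Stxbp5*, *Cplx1* and *Sh3gl2*) against 3.31%. GCGTGGGCG lies in 2 (*Unc13a* and *Synj1*) against 0.707%, TGAGTCA in 2 (*Syt2* and *Erc2*) against 5.95%, and TTCAGCACC in 3 (*Syn1*, *Unc13a* and *Ppfia3*) against 0.433%. Presynaptic windows were also richer in the letters CG, with a median of 16 CG pairs and 61.2% G or C in the 250 bases before the start. Over all 27025 genes with a window the medians were 6 pairs and 52%. Those genes are not limited to the genes tested here, so motif and CG shares among expressed genes alone are not given.

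Per length of transcript, the genes spanned from 486 ± 55.6 RPKM for *Snap25* to 0.458 ± 0.0785 RPKM for *Syn3* (mean ± SD, n = 8 samples). *Snap25* stood above 99.9% of all genes tested, and *Syn3* above 15.6%. After *Snap25* came *Syp* at 336 ± 18.6 RPKM, *Syt1* at 272 ± 20.8 and *Vamp2* at 262 ± 17.4, so the core vesicle SNARE, its membrane partner and the main calcium sensor were among the 4 most abundant of these transcripts. *Syt1*, *Vamp2*, *Cplx1* (243 ± 45.6 RPKM) and *Rab3a* (224 ± 12.2 RPKM) came next to each other, and neighbours in this order differed by less than the larger of their SDs. At the other end, *Doc2b* (3.27 ± 1.06 RPKM), *Sv2c* (2.89 ± 1.40) and *Unc13c* (2.83 ± 0.253) did not differ beyond their spread.

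**Figure D1:**
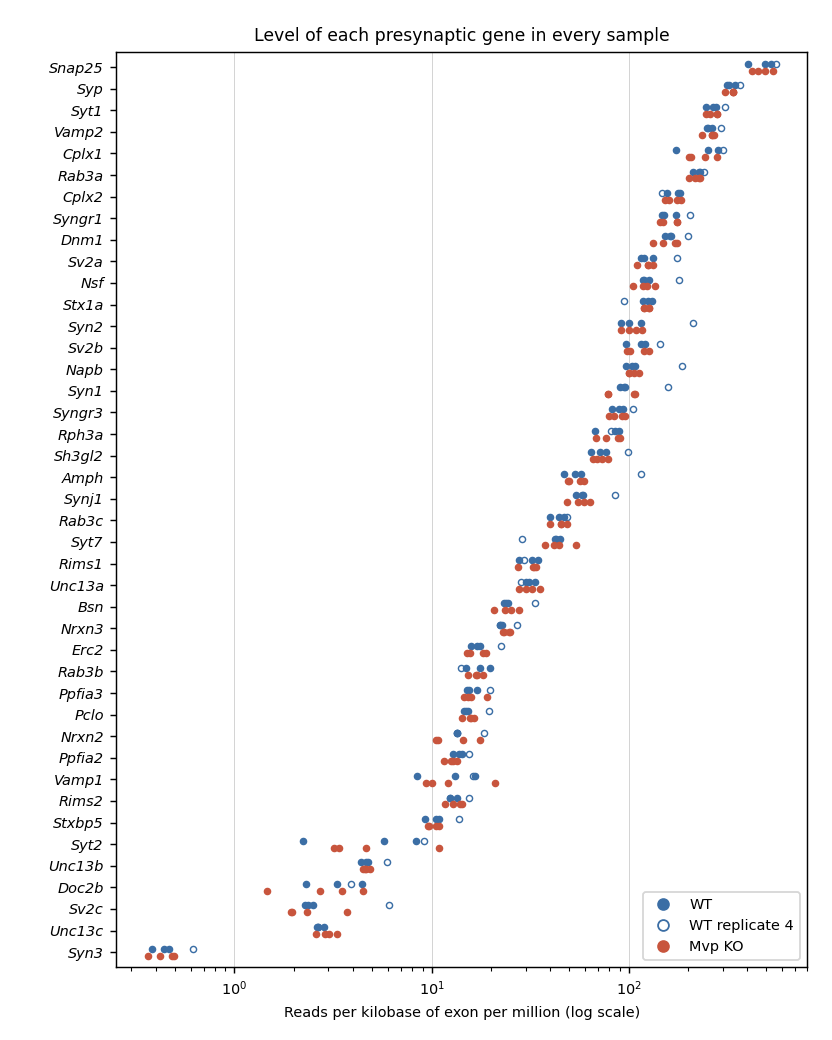
Level of each of the 42 genes in each of the 8 samples, in RPKM on a log axis, ordered by mean. Blue points are WT (open for replicate 4) and red points Mvp KO, and the means run from 0.458 for *Syn3* to 486 for *Snap25* with the colours mixed in every row.

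In some families 1 paralog gave far more of the RNA than the others. *Syt1* made up 97.9% ± 1.0 and *Syt2* 2.09% of the RPKM of these 2 synaptotagmins, and *Vamp2* made up 95.1% ± 1.67 against 4.86% for *Vamp1* (mean ± SD, n = 8). Of the Rab3 genes, *Rab3a* held 78.4% ± 1.59, *Rab3c* 15.7% and *Rab3b* 5.88%. Of the Munc13 priming factors, *Unc13a* held 80.2% ± 2.09, *Unc13b* 12.5% and *Unc13c* 7.34%. Other families were closer to even: *Cplx1* held 58.8% ± 5.12 and *Cplx2* 41.2%, *Sv2a* 52.3% ± 2.13 and *Sv2b* 46.6% with 1.14% for *Sv2c*, and *Syn2* 53.1% ± 3.0 and *Syn1* 46.6% with 0.214% for *Syn3*. The order of *Sv2a* and *Sv2b* depends on the length used: with the longest transcript in place of merged exons *Sv2a* held 43.7% and *Sv2b* 55.3%. *Syn2* stayed above *Syn1*, which then held 32.7%. In none of the 12 families did the mean share of a paralog differ between the genotypes by more than the larger of the 2 SDs. *Vamp1*, for example, held 4.85% ± 1.24 in WT and 4.87% ± 2.23 in Mvp KO, and *Unc13a* held 80.0% ± 2.26 and 80.3% ± 2.23 (n = 4 each).

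**Figure D2:**
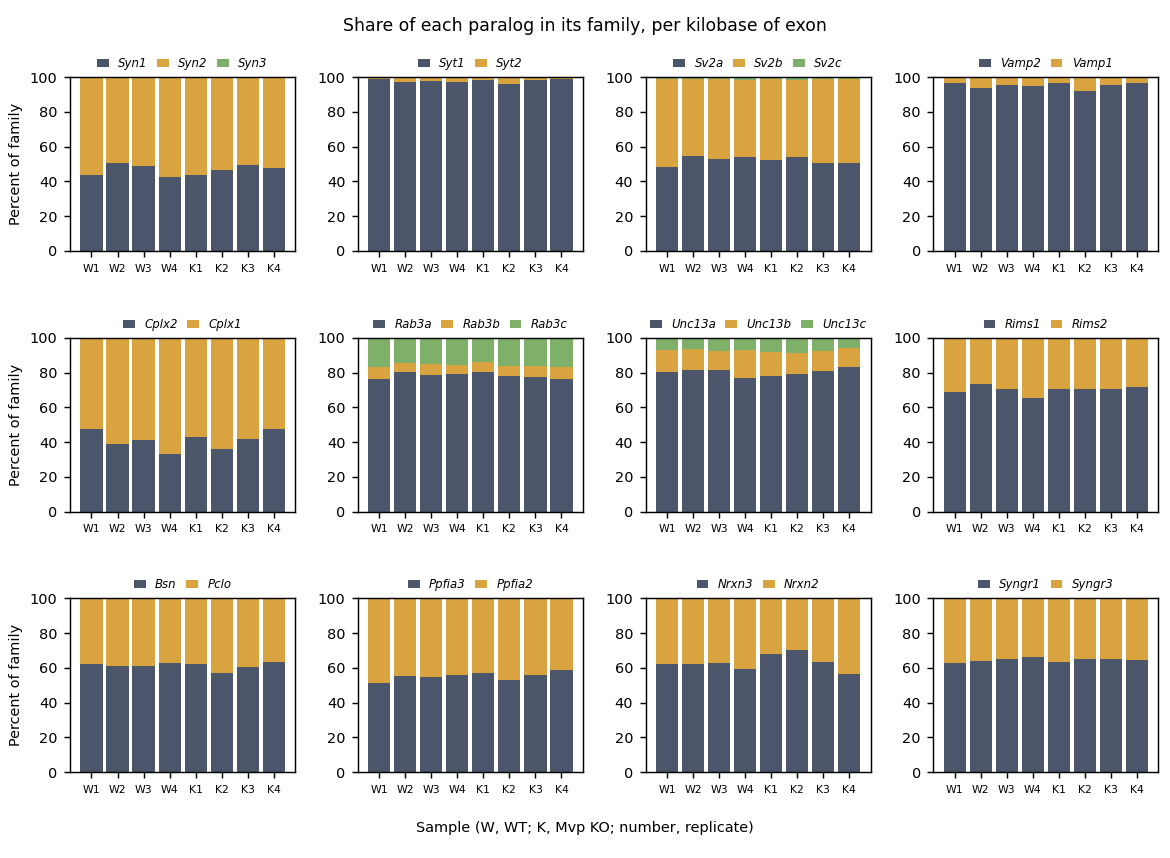
Share of each paralog in its family, in percent of the summed reads per kilobase, in each of the 8 samples (W, WT; K, Mvp KO). *Syt1* and *Vamp2* exceed 90% in every sample, while *Cplx1* ranges from 52.2% to 67.1%.

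The synapsins coat vesicles and tether them to each other and to actin. *Syn1* had 298, 314, 317 and 523 CPM in WT replicates 1 to 4 and 258, 260, 352 and 354 CPM in Mvp KO replicates 1 to 4. *Syn2* had 815, 646, 707 and 1488 CPM in WT and 706, 640, 769 and 818 CPM in Mvp KO. In both genes WT replicate 4 was the highest sample by far, and the other 3 WT samples lay within the range of Mvp KO. The log2 fold change of *Syn1* was -0.25 (SE 0.20, edgeR adjusted p = 0.969) and that of *Syn2* was -0.32 (SE 0.24, adjusted p = 0.969). Without WT replicate 4 they were -0.01 (SE 0.13) and 0.02 (SE 0.10). *Syn3*, the scarcest of the 42, had 5.72, 4.70, 5.42 and 7.56 CPM in WT and 4.47, 5.13, 5.94 and 6.04 CPM in Mvp KO, and 14.1% of its exonic bases lie opposite *Timp3*. Its estimate was -0.12 (SE 0.17) with WT replicate 4 and 0.03 (SE 0.15) without it. Whether the authors' counting used strand is not given in the sources used here, so reads of such overlapping genes cannot be assigned with certainty.

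Synaptophysin (*Syp*), the most abundant vesicle membrane protein gene here, had 1691, 1653, 1817 and 1917 CPM in WT and 1773, 1612, 1771 and 1773 CPM in Mvp KO. Its log2 fold change was -0.03, inside one of the narrowest 95% limits of the set (-0.20 to 0.14). A gene on the other strand, *Gm14703*, covers 16.8% of its exonic bases. The synaptogyrins, its relatives, had log2 fold changes of -0.07 each (*Syngr1*, SE 0.12, and *Syngr3*, SE 0.09). Leaving out WT replicate 4 gave 0.01 for *Syp*, 0.04 for *Syngr1* and -0.0040 for *Syngr3*. The SV2 proteins are transporter-like glycoproteins of the vesicle, and SV2A binds the antiepileptic levetiracetam. *Sv2a* had a log2 fold change of -0.13 (SE 0.13) and *Sv2b* of -0.09 (SE 0.13), which became 0.02 (SE 0.08) and 0.01 (SE 0.11) without that sample. *Sv2c*, a minor isoform in cortex, had 22.1, 24.2, 23.0 and 58.9 CPM in WT and 19.1, 36.1, 22.5 and 18.7 CPM in Mvp KO. Its log2 fold change of -0.41 (SE 0.35) was the furthest from 0 among the 42 and became 0.06 (SE 0.22) without WT replicate 4. With TMM scaling all 9 vesicle protein genes were highest in WT replicate 4, where 29.2% of all genes were. *Syp* and *Syngr3* were only 1.05 and 1.09 times the next sample there, so the 9 depend on the scaling.

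Among the calcium-binding proteins, *Syt1*, the fast calcium sensor of most forebrain synapses, had 2058, 2232, 2325 and 2580 CPM in WT and 2070, 2349, 2352 and 2162 CPM in Mvp KO. The log2 fold change was -0.04 (95% limits -0.24 and 0.16). *Syt7*, a slower sensor with high calcium affinity, behaved otherwise in WT replicate 4: it had 335, 321, 317 and 215 CPM in WT and 314, 281, 333 and 403 CPM in Mvp KO, so that WT replicate 4 was its lowest sample. Its log2 fold change was 0.16 (SE 0.15), and 0.04 (SE 0.11) without that sample. *Rph3a*, which encodes the Rab3 effector rabphilin, had a log2 fold change of -0.0018 (SE 0.12). *Syt2*, the sensor of fast-spiking and many hindbrain terminals, had 17.0, 63.9, 44.0 and 70.2 CPM in WT and 25.9, 83.6, 35.5 and 24.5 CPM in Mvp KO. The scatter within each genotype gave *Syt2* the widest 95% limits of the 42, -1.31 and 0.90 around an estimate of -0.20. *Doc2b*, a high-affinity calcium sensor linked to spontaneous release, had 19.3, 10.02, 14.4 and 17.1 CPM in WT and 11.8, 6.38, 15.3 and 19.6 CPM in Mvp KO, and its log2 fold change was -0.20 (SE 0.32). Without WT replicate 4 the estimates of *Syt1*, *Rph3a*, *Syt2* and *Doc2b* were 0.02, 0.0033, 0.03 and -0.13.

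*Snap25* encodes the membrane SNARE SNAP-25. It had 2745, 3586, 3347 and 3786 CPM in WT and 3086, 3661, 3334 and 2864 CPM in Mvp KO (log2 fold change -0.06, SE 0.12). For *Vamp2* the estimate was -0.03 (95% limits -0.22 and 0.15). *Stx1a*, encoding syntaxin 1A, had 315, 336, 351 and 254 CPM in WT and 321, 319, 339 and 340 CPM in Mvp KO. WT replicate 4 was the lowest sample of *Stx1a*, and the other 7 spanned a narrow range (coefficient of variation 4.05%). *Vamp1* had 85.6, 168, 134 and 165 CPM in WT and 102, 212, 123 and 95 CPM in Mvp KO (log2 fold change -0.05, SE 0.29). With WT replicate 4 left out the estimates of *Snap25*, *Vamp2*, *Stx1a* and *Vamp1* were 0.0075, 0.02, -0.02 and 0.04.

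Complexins clamp and then promote fusion. *Cplx1* had 380, 623, 552 and 658 CPM in WT and 452, 617, 532 and 441 CPM in Mvp KO, and *Cplx2* had 774, 894, 880 and 727 CPM in WT and 756, 791, 868 and 908 CPM in Mvp KO. With TMM scaling the 2 complexins went opposite ways in WT replicate 4, *Cplx1* being highest there and *Cplx2* lowest. *Napb*, which encodes the brain form of the NSF adaptor SNAP, had 732, 685, 758 and 1315 CPM in WT and 705, 708, 800 and 748 CPM in Mvp KO. *Nsf* likewise had 1509 CPM in WT replicate 4 against 879 to 1139 CPM in the other 7 samples. Without WT replicate 4 the log2 fold change of *Napb* went from -0.24 (SE 0.19) to 0.03 (SE 0.07), and that of *Nsf* from -0.17 (SE 0.15) to -0.0039 (SE 0.09). *Stxbp5*, encoding tomosyn, an inhibitor of SNARE assembly and the scarcest of this group per length at 10.6 ± 1.39 RPKM, had 181, 153, 173 and 226 CPM in WT and 160, 158, 179 and 174 CPM in Mvp KO. The log2 fold changes of *Cplx1*, *Cplx2* and *Stxbp5* were -0.12, 0.02 and -0.13 over all 8 samples, and -0.02, -0.03 and -0.0073 without WT replicate 4.

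The Rab3 genes encode GTPases that mark vesicles for the active zone. *Rab3a* had 474, 504, 512 and 539 CPM in WT and 505, 483, 515 and 452 CPM in Mvp KO (log2 fold change -0.05, 95% limits -0.22 and 0.11). *Rab3b* had 69.5, 53.0, 61.8 and 49.9 CPM in WT and 59.2, 54.0, 64.6 and 60.0 CPM in Mvp KO, and 9% of its exonic bases lie opposite another gene. For *Rab3c* the log2 fold change was -0.01 (SE 0.09). The estimates of *Rab3a*, *Rab3b* and *Rab3c* without WT replicate 4 were -0.02, -0.04 and 0.03.

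Of the priming factors and active zone scaffolds, all 10 had a 95% interval within 1.5-fold in either direction. *Unc13a*, the main Munc13 of forebrain excitatory synapses, had a log2 fold change of 0.03 (SE 0.09), and *Unc13b* of -0.08 (SE 0.10). *Unc13c*, known mainly from cerebellum, had 23.2, 23.5, 25.2 and 23.3 CPM in WT and 25.2, 29.3, 26.7 and 22.7 CPM in Mvp KO. Mvp KO replicates 1, 2 and 3 lay above every WT sample, replicate 1 narrowly, but Mvp KO replicate 4 was the lowest of all 8, and the log2 fold change of 0.13 (SE 0.09) had an unadjusted p of 0.182. The estimates without WT replicate 4 were -0.0065 for *Unc13a*, 0.02 for *Unc13b* and 0.12 for *Unc13c*. *Rims1*, whose protein links Rab3 and calcium channels to the active zone, had 205, 254, 239 and 217 CPM in WT and 203, 251, 244 and 242 CPM in Mvp KO. The log2 fold change of *Rims1* was 0.04, and 0.02 without WT replicate 4. Its 31.5 ± 2.78 RPKM did not differ from the 31.1 ± 2.60 RPKM of *Unc13a* beyond the spread.

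*Ppfia2*, which encodes liprin-α2, an organiser of the active zone, had the smallest p of the 42. It had 156, 151, 140 and 169 CPM in WT and 127, 139, 137 and 147 CPM in Mvp KO. The WT samples were mostly above those of Mvp KO, with WT replicate 3 below Mvp KO replicate 4 as the overlap. The log2 fold change was -0.16 (SE 0.08, 95% limits -0.34 and 0.01), with an unadjusted p of 0.0668 and an adjusted p of 0.969 in edgeR's test, and it was -0.11 (SE 0.07) without WT replicate 4. Of its exonic bases, 24.5% lie opposite genes of the other strand, including *Acss3*. Bassoon (*Bsn*) and piccolo (*Pclo*), the giant scaffolds of the active zone, had 533 and 441 CPM in WT replicate 4, against 329 to 441 and 319 to 369 CPM in the other samples. Their log2 fold changes of -0.11 and -0.06 became 0.03 and 0.05 without that sample. *Rims2*, *Erc2* and *Ppfia3* had log2 fold changes of -0.03, -0.10 and -0.05 over all 8 samples, and of 0.05, 0.02 and 0.03 without WT replicate 4.

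Neurexins are presynaptic adhesion molecules that pair with neuroligins. *Nrxn3* had 282, 281, 287 and 343 CPM in WT and 290, 315, 311 and 293 CPM in Mvp KO. Without WT replicate 4 all 4 Mvp KO samples lay above the 3 remaining WT samples, and the log2 fold change went from 0.02 (SE 0.08) to 0.10 (SE 0.06, adjusted p = 0.9999). *Nrxn3* was then the 1 gene of the 42 without overlap, where 2.82% of all genes had none. *Nrxn2* had 185, 186, 186 and 255 CPM in WT and 149, 146, 199 and 245 CPM in Mvp KO, so Mvp KO replicate 4 was nearly as high as WT replicate 4. Its log2 fold change was -0.14 (SE 0.18), and -0.0075 (SE 0.17) without WT replicate 4.

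With TMM scaling the 4 endocytic genes, like the vesicle proteins, were highest in WT replicate 4. *Amph*, which encodes amphiphysin, an adaptor that brings dynamin and synaptojanin to the budding vesicle, had 259, 212, 243 and 526 CPM in WT and 224, 224, 268 and 257 CPM in Mvp KO. WT replicate 4 was the highest sample by far, and WT replicate 2 was the lowest. The log2 fold change went from -0.35 (SE 0.26, edgeR adjusted p = 0.969) to 0.03 (SE 0.09) without WT replicate 4. *Dnm1*, the gene of neuronal dynamin and the most abundant of the group at 164 ± 20.3 RPKM, had 806, 850, 865 and 1053 CPM in WT and 694, 782, 920 and 903 CPM in Mvp KO. *Synj1*, whose phosphatase uncoats vesicles, had 470, 436, 473 and 692 CPM in WT and 392, 448, 517 and 480 CPM in Mvp KO. *Sh3gl2*, encoding endophilin A1, had a log2 fold change of -0.12 (SE 0.13). Leaving out WT replicate 4 took *Dnm1* from -0.12 to -0.02, *Synj1* from -0.17 to 0.0025 and *Sh3gl2* to 0.02.

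**Figure D3:**
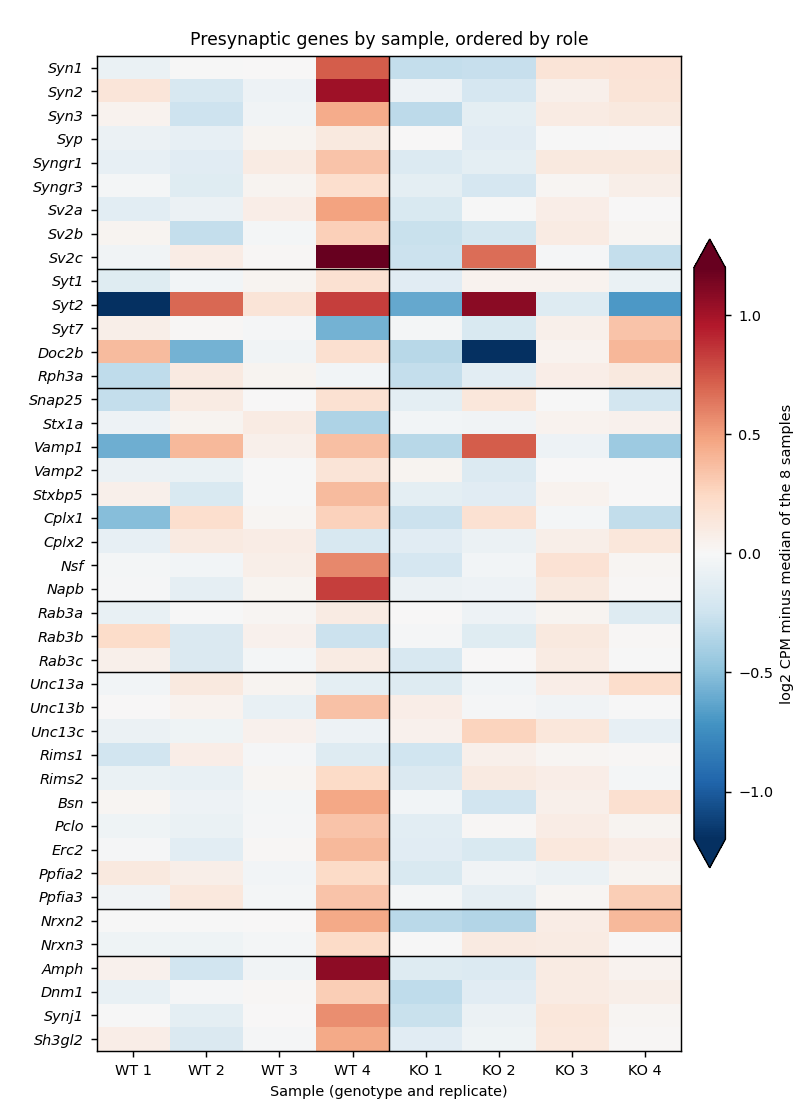
Level of each gene in each sample as log2 CPM minus the gene's median over the 8 samples, with genes in rows by role (lines separate roles) and samples in columns. The column of WT replicate 4 is red for most genes, 30 of 42 being highest there (18 with total counts alone) against 29.2% of all genes, and the rows of *Syt2*, *Vamp1* and *Doc2b* vary in both genotypes.

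WT replicate 4 was the highest of the 8 samples in 30 of the 42 genes, where 29.2% of all genes were highest in it. It was the lowest in 4 (*Syt7*, *Stx1a*, *Cplx2* and *Rab3b*), where 32.5% of all genes were. The median gene of the 42 stood 0.31 above the median of the other 7 samples on the log2 scale, and the median over all genes stood at -0.037. The count depended on the scaling. With DESeq2's size factors it was 31 with a median of 0.35 (-0.0041 over all genes), and with total counts alone it was 18 with a median of 0.17 (-0.19 over all genes). The 42 genes together took 2.48% of the counts of that sample and 2.11% to 2.30% of those of the others. By role, and with TMM scaling only, WT replicate 4 was highest in 9 of 9 vesicle proteins, 4 of 4 endocytic genes and 2 of 2 neurexins. It was highest in 7 of 10 active zone genes, 6 of 9 SNARE genes, 1 of 5 calcium-binding and 1 of 3 Rab3 genes. Counts by role with total counts alone are not given here, so these differences between roles may depend on the scaling.

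Marker genes differed in the same sample. The summed level of the 10 immediate early genes was 646 to 2639 CPM in WT and 843 to 1573 CPM in Mvp KO, the highest being WT replicate 4. Of the 8 inhibitory neuron markers, 5 were highest in WT replicate 4, and their sum was 2007 CPM there against 977 to 1196 CPM in the other samples. The 6 excitatory markers summed to 5665 to 6213 CPM in WT and 4916 to 6272 CPM in Mvp KO, with 3 highest and 2 lowest in that sample. The 8 oligodendrocyte markers summed to 1385 CPM in WT replicate 4, to 1828 to 2958 CPM in the other WT samples, and to 5935, 4062, 2070 and 1616 CPM in Mvp KO replicates 1 to 4. The 6 astrocyte markers spanned 1789 to 2118 CPM, the 6 microglia markers 345 to 392 CPM, and the 6 striatal markers 90.7 to 181 CPM, the last being highest in WT replicate 4. No marker was at 0 in any sample and none was called between the genotypes. Mvp KO replicate 1, with the highest oligodendrocyte sum, was the lowest sample in 13 of the 42 genes, where 13.8% of all genes were lowest in it. Fewer cells of a type and less RNA per cell cannot be told apart in bulk tissue, and the part of these markers in the presynaptic levels was not tested.

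A second pattern, noticed after the values had been seen, ran across the genotypes. *Syt2*, *Vamp1*, *Cplx1*, *Snap25* and *Sv2c* had WT replicates 2 and 4 and Mvp KO replicate 2 as their 3 highest samples. That held for 5 of the 42 genes and for 3.84% of all genes, and for 1 (*Scamp1*) of the 53 related presynaptic genes described below. The 3 samples were picked from the values of these same genes. In *Syt2*, *Vamp1*, *Cplx1* and *Snap25* WT replicate 3 came next and WT replicate 1 was lowest. The size of the swing differed: the highest sample was 4.93 times the lowest in *Syt2*, 2.48 times in *Vamp1*, 1.64 times in *Cplx1* and 1.33 times in *Snap25* when WT replicate 4 is left out. *Doc2b* ran nearly the other way, lowest in Mvp KO replicate 2 and WT replicate 2 and highest in Mvp KO replicate 4 and WT replicate 1. Over the 7 samples without WT replicate 4 the coefficient of variation was 57.0% for *Syt2*, 34.9% for *Doc2b* and 34.4% for *Vamp1*, against a median of 10.2% over all genes, and 3.71% for *Unc13b* and 4.05% for *Stx1a*.

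*Syt2* and *Vamp1* are known as presynaptic genes of fast-spiking parvalbumin interneurons, among other neurons. *Pvalb* had 19.2, 45.8, 34.6 and 39.8 CPM in WT and 29.7, 54.4, 26.6 and 22.2 CPM in Mvp KO, so the same 3 samples were highest and WT replicate 1 was again lowest. Among the other markers, *Gad1* of the inhibitory list, *Nrgn* of the excitatory list and *P2ry12* of the microglia list had the same 3 highest samples. The other 6 inhibitory markers did not. The part of any cell type in this order was not tested.

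**Figure D4:**
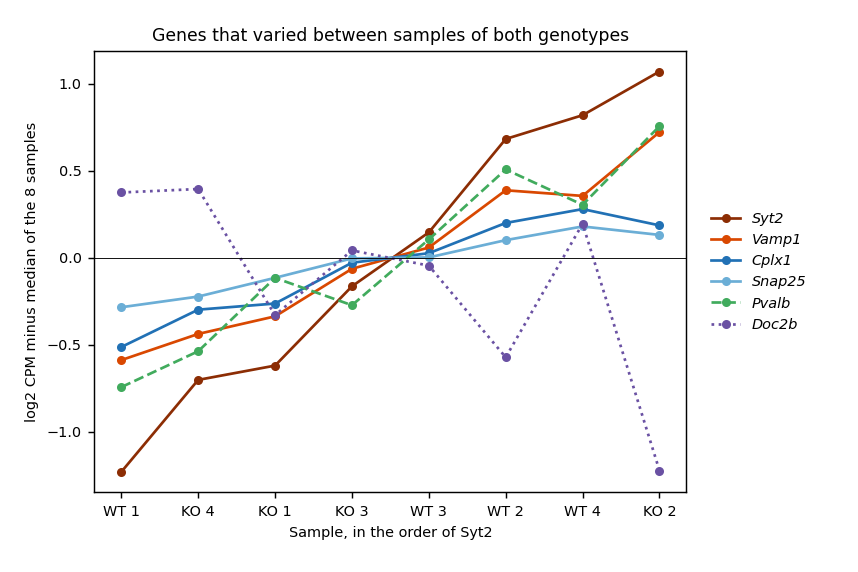
log2 CPM minus the median of the 8 samples for 5 presynaptic genes and for *Pvalb* (dashed), with samples in the order of *Syt2*. *Syt2* rises from 17.0 CPM in WT replicate 1 to 83.6 CPM in Mvp KO replicate 2, *Vamp1*, *Cplx1*, *Snap25* and *Pvalb* rise along the same order, and *Doc2b* (dotted) is lowest at its end.

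Because no gene was called, the intervals say what these data allow. In 34 of the 42 genes both 95% limits fell within 1.5-fold of no change, as it did for 64.5% of all genes. It lay within 1.2-fold for 11 and within 2-fold for 40. The 8 that were not within 1.5-fold were *Syn1*, *Syn2*, *Sv2c*, *Syt2*, *Doc2b*, *Vamp1*, *Napb* and *Amph*, and a change of 2-fold lay inside the interval of *Sv2c* and *Syt2*. The fold change was below 0 on the log2 scale in 34 of the 42 genes and in 50% of all genes, with a median of -0.077 against -2.07e-06 over all genes.

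**Figure D5:**
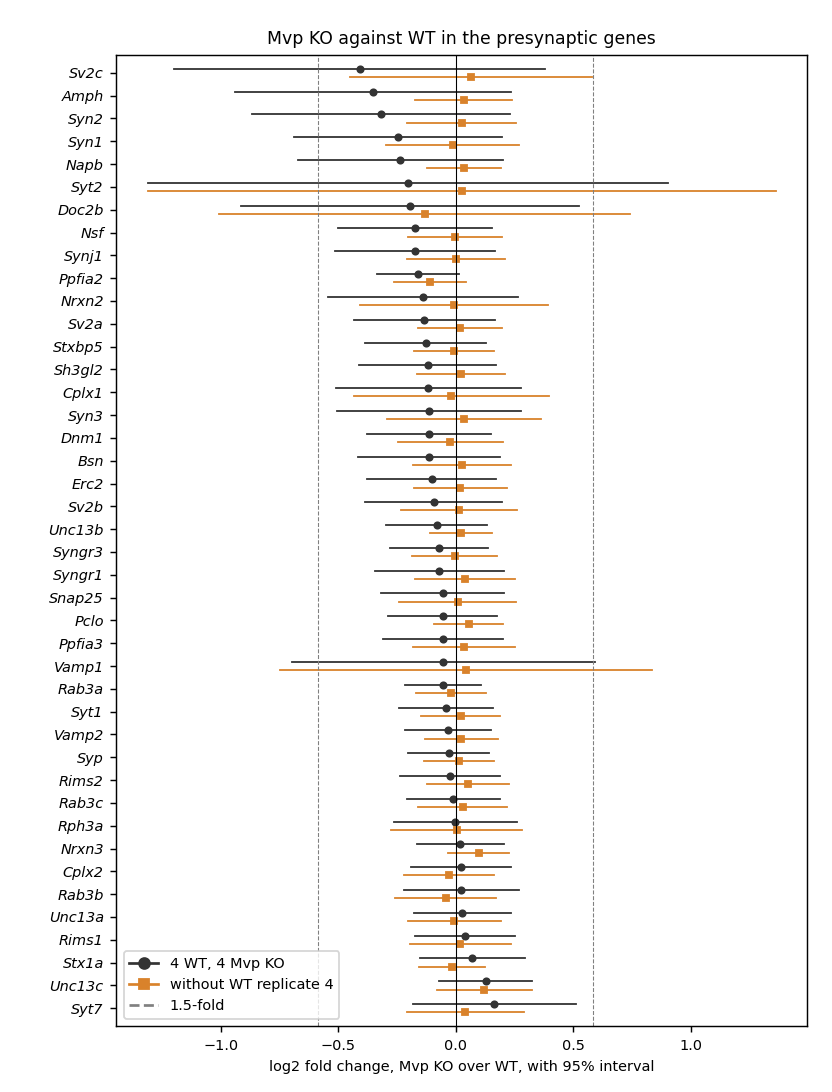
log2 fold change of Mvp KO over WT with its 95% interval for each of the 42 genes, from all 8 samples (black circles) and without WT replicate 4 (orange squares). Black points lie below 0 in 34 genes and orange points in 14, and the dashed lines mark 1.5-fold.

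That direction rested on 1 sample. Without WT replicate 4, the log2 fold change was below 0 in 14 of the 42 genes and in 48.3% of all genes, with a median of 0.019 against 0.0033 over all genes. Again 0 of the 42 were called, where 0.00583% of the 17159 genes tested were, and 0 had an unadjusted p under 0.05, where 1.34% did. The intervals of 39 genes then lay within 1.5-fold, as did 71.4% over all genes. The 3 others were *Syt2*, *Vamp1* and *Doc2b*, the genes that varied between mice of both genotypes.

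Of 53 related genes (other synaptotagmins, SNAREs, complexins, SV2-like and SCAMP proteins, CAPS priming factors, endocytic proteins and vesicular transporters), 0 were called, where 0.00591% of all genes were, and 0 had an unadjusted p under 0.05, where 1.56% did. Of their log2 fold changes 24 were above 0 and 29 below, against 50% below over all genes, and the median was -0.028. WT replicate 4 was highest in 22 of the 53, against 29.2% of all genes, and lowest in 15, against 32.5%. *Slc32a1*, the vesicular GABA transporter gene, had the smallest p of the set. Its levels were 56.2, 62.9, 60.4 and 110 CPM in WT and 48.6, 58.3, 55.9 and 55.9 CPM in Mvp KO. The estimate of -0.40 (SE 0.20, adjusted p = 0.969) was -0.13 without WT replicate 4. *Slc17a7*, the vesicular glutamate transporter gene of cortical neurons, had 2731 CPM in WT replicate 4 and 1335 to 1678 CPM in the other samples. *Rimbp2* and *Stxbp5l* were also highest in WT replicate 4, at 546 and 23.2 CPM against at most 330 and 10.5 CPM elsewhere. *Slc17a6*, the transporter gene of thalamic and other subcortical neurons, had 38.9 CPM in Mvp KO replicate 2 and 10.03 to 16.3 CPM in the other 7 samples.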

How the data were processed

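Libraries were made by the authors from 200 ng of total RNA with a stranded polyA kit and read as single ends of 50 bases. According to the labels and the study's methods, the authors trimmed reads with cutadapt 1.10, removed ribosomal and spike-in reads with bowtie 2.2.8, mapped with STAR 2.5.3a to mm10 and counted with htseq-count 0.6.1p1 on an Ensembl annotation, and the authors deposited raw counts. The mode and strand setting of the counting are not given in the sources used here. Groups and replicate numbers came from the sample labels. The replicates are separate mice. Symbols and lengths came from GENCODE vM21 (GRCm38), which matched 53274 of 53379 genes.

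From the deposited counts, genes were filtered with filterByExpr (minimum count 10, minimum total 15), scaled with TMM and compared with edgeR 4.0.16 (robust quasi-likelihood test, two-sided, genotype as the single term, R 4.3.3). P-values were adjusted by the Benjamini-Hochberg method across the 16914 genes that passed, and 0.05 was the threshold. Alternatives were DESeq2's size factors, the Wald test of DESeq2 1.42.0, voom of limma 3.58.1 with quality weights per sample, a fit on unfiltered genes, a replicate block and leaving out each sample. The fits were also run on simulated counts with known fold changes, and the outcome is not given here. All simulated samples were drawn from the same gene means, with none set apart like WT replicate 4. The simulation therefore cannot show how the fits handle such a sample. Between replicates of a genotype the chi-square per gene of the counts was 6.93 to 96.3, so no pair was close enough to be the same library.

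Every member is described. Named first were the 5 with the smallest p, the most and least abundant of each role, paralogs of minor share, and genes highest or lowest in a sample that stands apart, most of them with values in every sample and the others by range or fold change. Other genes named with values were chosen after their values were seen. Members, lists and tests were chosen with earlier results of these data known. For most members the spread between mice sets the precision, and for *Syn3*, with 172 to 238 counts in a sample, counting error adds to it.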

Additional observations from a re-analysis of the deposited data

Results flagged for a closer look

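In groups of 4 samples, 1 sample lay far from the other 3 (by Dixon's gap over range, at its 95% critical value) in 15 of the 88 groups examined, where chance flags about 1 in 20, or 4.4. The groups hold the same mice for gene after gene, so they are not independent and the chance count is only a guide. Of these 15, 11 were in WT replicate 4. That sample was high for *Syn1* (523 CPM, the other WT samples 298 to 317), *Sv2c* (58.9 against 22.1 to 24.2), *Nsf* (1509 against 987 to 1064), *Napb* (1315 against 685 to 758), *Bsn* (533 against 370 to 391), *Pclo* (441 against 330 to 345), *Nrxn2* (255 against 185 to 186), *Nrxn3* (343 against 281 to 287), *Amph* (526 against 212 to 259) and *Synj1* (692 against 436 to 473). It was low for *Syt7* (215 against 317 to 335 CPM).

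In the other groups, *Syp* was low in Mvp KO replicate 2 (1612 CPM against 1771 to 1773 CPM in the other Mvp KO samples). *Unc13c* was high in WT replicate 3, at 25.2 CPM against 23.2 to 23.5 CPM. *Mvp* was highest among the Mvp KO samples in replicate 3, at 2.13 CPM against 1.44 to 1.51 CPM. The total count was highest among WT samples in replicate 2, at 42854368.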

How the results depend on the processing

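Across 80 results and 891 alternative values, 783 were counted as unchanged, 7 lost a call, 0 gained one, 79 changed sign and 22 moved. Changes of sign were counted for single genes only. The 783 therefore include the median log2 fold change of the 42 genes, -0.077 in the main fit. That median was above 0 without WT replicate 4 and with limma voom. The 783 also include the number of intervals within 1.5-fold, which was 34 in the main fit and 28 to 40 in the others. The counts of called presynaptic and related genes were 0 under every alternative run. The share of all genes called is given here for the main test and without WT replicate 4 only. *Mvp* kept its direction but lost its call with the replicate block (log2 fold change -2.07, adjusted p = 0.0850) and without WT replicate 1, 2 or 3 or Mvp KO replicate 1, 2 or 4 (adjusted p = 0.0918 to 0.147), over a range of -2.22 to -1.99 without 1 sample each. Samples of the same number had correlations of 0.0548, 0.287, -0.0067 and 0.0507 between their deviations from the genotype mean. Correlations over all genes tested do not settle whether the numbers pair the mice, and the labels name no pairing. With the block, 0 presynaptic or related genes were called. The number of presynaptic genes whose genotypes did not overlap was 0 to 2 without 1 sample each: *Ppfia2* without WT replicate 3 or Mvp KO replicate 4, *Unc13c* without Mvp KO replicate 4, and *Nrxn3* without WT replicate 4. Over all genes 2.82% to 4.18% did not overlap in these fits. Scaling by total counts, chosen after seeing the data, left 18 of 42 highest in WT replicate 4. The median log2 fold change of the 42 was -0.12 to 0.019 without 1 sample each and 0.029 with limma voom.

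No changed sign concerned a call. With limma voom log2 fold changes were *Syn1* 0.037, *Syn2* 0.047, *Syn3* 0.077, *Syngr1* 0.039, *Syngr3* 0.00086, *Sv2a* 0.0024, *Sv2b* 0.054, *Syt1* 0.0076, *Rph3a* 0.040, *Stx1a* -0.011, *Vamp2* 0.013, *Stxbp5* 0.0067, *Cplx2* -0.0044, *Nsf* 0.017, *Napb* 0.026, *Rab3c* 0.063, *Unc13b* 0.014, *Rims2* 0.042, *Bsn* 0.047, *Pclo* 0.061, *Erc2* 0.047, *Ppfia3* 0.050, *Nrxn2* 0.045, *Amph* 0.048, *Dnm1* 0.018, *Synj1* 0.035 and *Sh3gl2* 0.052. Without the filter *Rph3a* was 0.0033. Without 1 sample each, those that changed sign spanned *Syn2* -0.46 to 0.025, *Syn3* -0.21 to 0.034, *Syp* -0.065 to 0.013, *Syngr1* -0.14 to 0.041, *Sv2a* -0.21 to 0.017, *Sv2b* -0.18 to 0.012, *Sv2c* -0.68 to 0.064, *Syt1* -0.095 to 0.021, *Syt2* -0.77 to 0.025, *Doc2b* -0.44 to 0.031, *Rph3a* -0.081 to 0.072, *Snap25* -0.15 to 0.0075, *Stx1a* -0.015 to 0.12, *Vamp1* -0.38 to 0.074, *Vamp2* -0.063 to 0.024, *Cplx2* -0.028 to 0.066, *Napb* -0.34 to 0.034, *Rab3b* -0.043 to 0.11, *Rab3c* -0.065 to 0.043, *Unc13a* -0.038 to 0.086, *Unc13b* -0.14 to 0.021, *Rims1* -0.011 to 0.11, *Rims2* -0.068 to 0.052, *Bsn* -0.19 to 0.027, *Pclo* -0.10 to 0.055, *Erc2* -0.17 to 0.019, *Ppfia3* -0.15 to 0.034, *Nrxn3* -0.011 to 0.097, *Amph* -0.50 to 0.033, *Synj1* -0.25 to 0.0025 and *Sh3gl2* -0.21 to 0.022. With the longest transcript as length, shares of the family were *Syn1* 32.7%, *Syn2* 67%, *Syn3* 0.38%, *Sv2a* 43.7%, *Sv2b* 55.3%, *Rab3b* 4.42%, *Unc13b* 15.3%, *Unc13c* 5.86%, *Rims1* 55.5%, *Rims2* 44.5%, *Bsn* 58.7%, *Pclo* 41.3%, *Ppfia3* 61.9%, *Ppfia2* 38.1%, *Nrxn3* 56.9%, *Nrxn2* 43.1%, *Syngr1* 66.6% and *Syngr3* 33.4%. These shares differ by the length alone. With voom and without a sample, what moved the other values was not tested.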
